A study of Homo sapiens with 18 samples.

Results

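SERPINI1, ZCCHC24 and ZMYND8 are 3 genes that other studies use as pharmacodynamic markers of BET inhibition, and they were followed here through ovarian cancer cells given a BET inhibitor (BETi). They were named from knowledge of other studies, although earlier results of these data were known when they were chosen, and were found by mapping the Ensembl identifiers of both count tables to symbols, which gave 3 of 58825 genes in all 18 libraries. The cells were OVCAR-3, an established human line of high-grade serous ovarian cancer, kept in stripped medium and given DMSO, 1 µM of i-BET858 or 1 µM of i-BET151. RNA was taken at 4 h or 24 h, so that there were 6 groups of 3 biological replicates. All groups shared the cell line and the medium, both drugs were given at 1 dose, and i-BET858 and i-BET151 were compared at matched dose and time. With a single line in culture, nothing was measured in other cells or in tumours.

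BET proteins, BRD2 and BRD3 among them, bind acetylated histones through their bromodomains and help RNA polymerase II to elongate. BETi occupy the bromodomains and displace the proteins from chromatin. Transcripts that move early and strongly in many cell types are therefore used to read out whether a dose has engaged its target. SERPINI1 encodes neuroserpin, a secreted inhibitor of serine proteases that acts on tissue-type plasminogen activator and is best known from neurons. ZCCHC24 encodes a little characterised protein with a CCHC zinc finger. ZMYND8 encodes a chromatin reader with a PHD finger, a bromodomain, a PWWP domain and a MYND finger, which works with histone demethylases and with the NuRD complex.

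By position on GRCh38 (GENCODE 44), SERPINI1 (ENSG00000163536.12) lies at chr3:167735243-167825569 on the plus strand, with 2128 exon bases. ZCCHC24 (ENSG00000165424.6) lies at chr10:79382325-79445624 on the minus strand, with 5048 exon bases. ZMYND8 (ENSG00000101040.19) lies at chr20:47209214-47356889 on the minus strand, with 7625 exon bases. In the exons, ZCCHC24 shares 259 bases (5.13%) with the antisense gene ENSG00000235426, which had 0 to 3 counts per library, and ZMYND8 shares 111 bases (1.46%) with the antisense gene ENSG00000267882, which had 0 to 21. SERPINI1 shares no exon base with a gene of the other strand.

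The bases before the RefSeq starts of the genes are shown because SERPINI1 and ZCCHC24 rose in all 4 comparisons with DMSO and ZMYND8 fell in 3 of them. They are the RefSeq promoter windows (GRCh38.p14), from 250 bases before the start up to the start, without bases that GENCODE places in an exon. Capitals mark, on either strand, the GC box GGGCGG, the CCAAT box, the TATA box TATAAA, the E-box CACGTG and a second E-box form, CAGCTG, and overlapping matches of the GC box were each counted. SERPINI1 is at chr3:167735471-167735720 (plus strand), ZCCHC24 at chr10:79445625-79445874 (minus strand), and ZMYND8 at chr20:47356890-47356949 (minus strand), where only 60 bases lie outside exons. The RefSeq start of SERPINI1 is downstream of the GENCODE start given above, so its window lies within the GENCODE span of the gene, outside exons.
SERPINI1: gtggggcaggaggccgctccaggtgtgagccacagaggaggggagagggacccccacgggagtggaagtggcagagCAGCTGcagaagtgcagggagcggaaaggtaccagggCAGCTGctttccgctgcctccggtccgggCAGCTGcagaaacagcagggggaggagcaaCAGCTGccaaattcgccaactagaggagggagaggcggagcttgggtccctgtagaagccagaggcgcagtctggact
ZCCHC24: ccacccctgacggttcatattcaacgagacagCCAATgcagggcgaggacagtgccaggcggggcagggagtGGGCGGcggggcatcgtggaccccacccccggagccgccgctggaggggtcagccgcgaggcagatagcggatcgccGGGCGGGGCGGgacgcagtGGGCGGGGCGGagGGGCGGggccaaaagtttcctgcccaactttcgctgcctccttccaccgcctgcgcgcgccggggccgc
ZMYND8: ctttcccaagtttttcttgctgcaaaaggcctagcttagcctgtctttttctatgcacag

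In this window SERPINI1 held CAGCTG at 4 places and none of the other 4 motifs. CAGCTG, chosen after the sequence of SERPINI1 was seen, is present in 14.0% of 35116 RefSeq windows of the same length, and at 4 or more places in 0.0171%. ZCCHC24 held GGGCGG at 6 places, which 2.22% of the windows reach, and CCAAT at 1 place. The full 250 bases of ZMYND8, exons included, held GGGCGG at 1 place and CCAAT at 2 places. A second RefSeq window of ZMYND8, of which chr20:47356437-47356656 lies outside exons, is not printed. Its full 250 bases, exons included, held none of the 5 motifs and had a G+C content of 47.2%. GGGCGG is present in 42.6% of all windows, CCAAT in 32.0%, TATAAA in 10.7% and CACGTG in 6.34%. The G+C content was 64.8% for SERPINI1, 73.2% for ZCCHC24 and 50.8% for the full 250 bases of the first ZMYND8 window, beside a median of 58.0% over all windows. No motif was shared by SERPINI1 and ZCCHC24.

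Library totals ranged from 27323969 to 46299994 counts, so that 3 counts, the limit that a count of 0 allows, correspond to 0.0648 to 0.110 CPM (counts per 1000000 counts of a library, with totals normalised by TMM for the levels below), for counting error only. Replicate 3 stood apart: 17817 to 20642 genes had a count in its libraries, against 23674 to 24947 in replicates 1 and 2. The tests of a drug against DMSO, of drug against drug and of changes over time were therefore also run without it. All 11 markers of serous ovarian epithelium, PAX8 and WT1 among them, had a mean of at least 1 CPM in every group. Their sum moved with treatment: at 4 h it was 8810 to 10200 CPM in DMSO, 11800 to 12300 under i-BET858 and 9920 to 10500 under i-BET151, and at 24 h 8860 to 10300, 7190 to 7490 and 7110 to 7580. What this has to do with the levels of the markers of BETi was not tested. Markers of leukocytes summed to at most 3.23 CPM and those of endothelium to at most 5.37. Those of neurons, where neuroserpin is best known, summed to 4.69 to 8.18 CPM at 4 h, and at 24 h to 4.78 to 6.66 in DMSO and 2.79 to 3.77 under the drugs. Of the fibroblast markers, COL1A1 was at 21.1 to 46.6 CPM and COL3A1, DCN and PDGFRB were below 1 CPM.

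**Figure D1:**
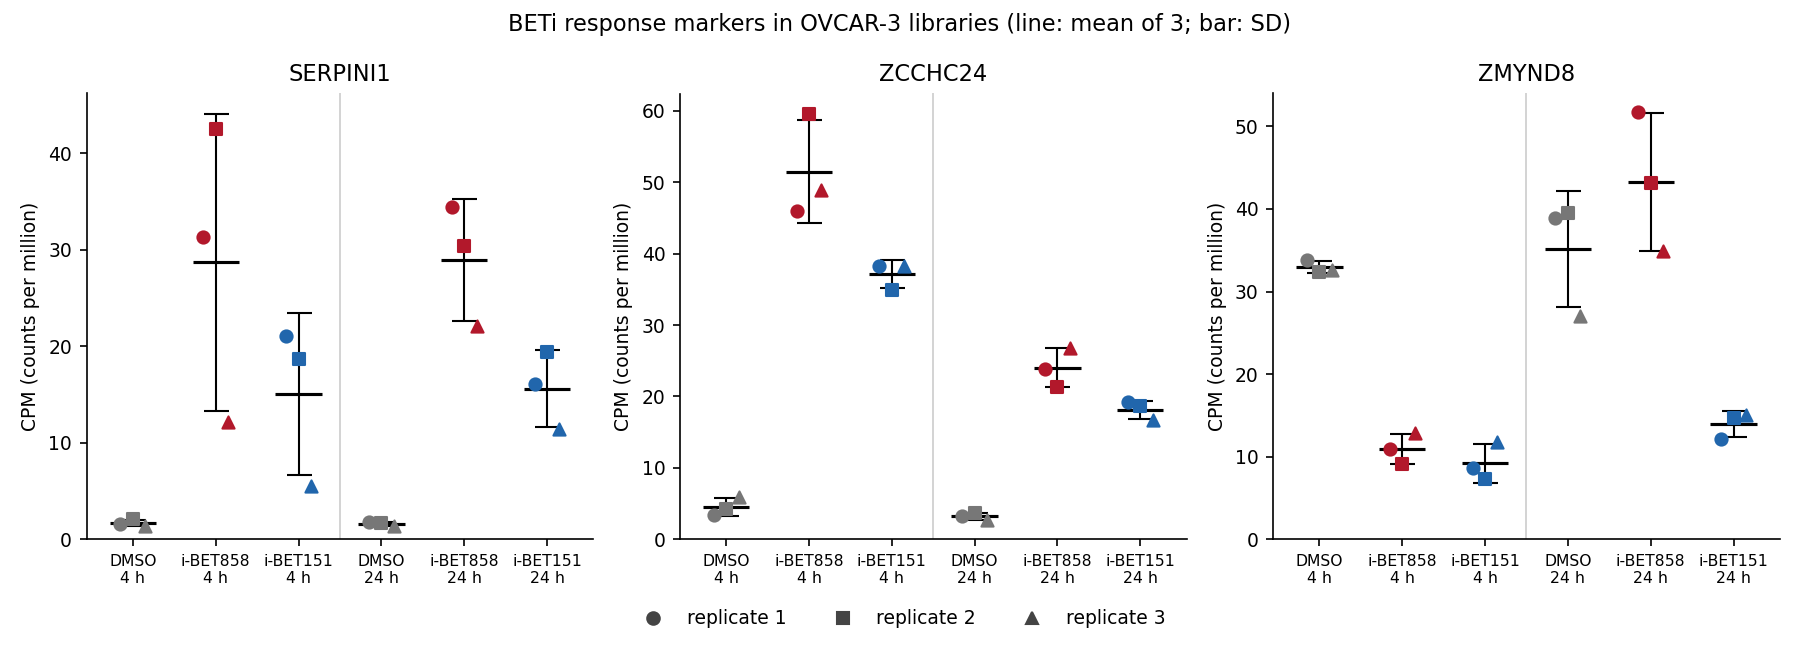
Level of each marker (CPM, y axis from 0) in the 18 libraries by group, with the mean of 3 as a line and the SD as a bar; symbols give the replicate number. SERPINI1 and ZCCHC24 are above every DMSO library in each treated library, and ZMYND8 is low with both drugs at 4 h but only with i-BET151 at 24 h.

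SERPINI1 rose with both drugs at both times, from a low level. With DMSO it stood at 1.60, 2.06 and 1.38 CPM in replicates 1 to 3 at 4 h, and at 1.82, 1.62 and 1.40 at 24 h. With i-BET858 it stood at 31.3, 42.6 and 12.2 CPM at 4 h and at 34.4, 30.4 and 22.04 at 24 h. With i-BET151 it stood at 21.04, 18.7 and 5.48 CPM at 4 h and at 16.1, 19.3 and 11.4 at 24 h. No treated library reached down to a DMSO library, and replicate 3 was the lowest of the 3 in each treated group.

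In the fit across all genes, SERPINI1 was 17.0-fold higher with i-BET858 than with DMSO at 4 h (log2 fold change 4.09, SE 0.56, 95% interval 7.27 to 39.8-fold, adjusted p = 2.39e-04). At 24 h it was 17.4-fold higher (4.12, SE 0.25, 11.9 to 25.6-fold, adjusted p = 1.14e-06). With i-BET151 it was 8.87-fold higher at 4 h (3.15, SE 0.54, 3.88 to 20.3-fold, adjusted p = 0.00255) and 9.50-fold higher at 24 h (3.25, SE 0.25, 6.53 to 13.8-fold, adjusted p = 8.24e-06). The adjusted p is that of edgeR's quasi-likelihood test with Benjamini-Hochberg adjustment over all genes tested, and a gene was called at an adjusted p below 0.05. Counted from the largest rise, SERPINI1 was number 106 of 17192 genes tested with i-BET858 at 4 h and number 54 of 17157 at 24 h, and number 146 and number 71 with i-BET151.

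The spread between replicates was wider at 4 h. The coefficient of variation of SERPINI1 at 4 h was 53.6% (i-BET858) and 55.7% (i-BET151), and at 24 h 21.8% and 25.6%. Within replicate numbers, the ratio of i-BET858 to DMSO at 4 h was 19.6, 20.6 and 8.82 in replicates 1 to 3, and at 24 h it was 19.0, 18.8 and 15.7. Without replicate 3 the log2 fold change at 4 h was 4.33 for i-BET858 and 3.42 for i-BET151. RNA of a bulk culture cannot tell more RNA per cell from more cells that make it, here or in any result below.

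ZCCHC24 also rose with both drugs at both times. With DMSO it stood at 3.38, 4.20 and 5.83 CPM in replicates 1 to 3 at 4 h, and at 3.27, 3.67 and 2.64 at 24 h. With i-BET858 it stood at 45.9, 59.6 and 49.0 CPM at 4 h and at 23.8, 21.4 and 26.8 at 24 h. With i-BET151 it stood at 38.3, 34.9 and 38.3 CPM at 4 h and at 19.2, 18.6 and 16.7 at 24 h. The 4 treated groups did not overlap one another, in the order i-BET858 at 4 h, i-BET151 at 4 h, i-BET858 at 24 h and i-BET151 at 24 h, and all lay above DMSO.

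Against DMSO, ZCCHC24 was 11.6-fold higher with i-BET858 at 4 h (log2 fold change 3.53, SE 0.21, 95% interval 8.46 to 15.8-fold, adjusted p = 9.81e-07) and 7.32-fold higher at 24 h (2.87, SE 0.16, 5.71 to 9.38-fold, adjusted p = 8.69e-07). With i-BET151 it was 8.31-fold higher at 4 h (3.05, SE 0.20, 6.10 to 11.3-fold, adjusted p = 8.2e-06) and 5.60-fold higher at 24 h (2.49, SE 0.16, 4.38 to 7.16-fold, adjusted p = 3.49e-06). Its replicates lay closer together than those of SERPINI1: the coefficient of variation in the 4 treated groups was 5.27 to 14.0%, beside 21.8 to 55.7% for SERPINI1. Ordered by p at 4 h, ZCCHC24 was number 33 for i-BET858 and number 15 for i-BET151, while SERPINI1, of the larger change, was number 940 and number 734.

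ZMYND8 fell with both drugs at 4 h and with i-BET151 at 24 h, but was not called lower with i-BET858 at 24 h. With DMSO it stood at 33.8, 32.4 and 32.7 CPM in replicates 1 to 3 at 4 h, and at 38.9, 39.5 and 27 at 24 h. With i-BET858 it stood at 10.9, 9.12 and 12.8 CPM at 4 h and at 51.8, 43.1 and 35.0 at 24 h. With i-BET151 it stood at 8.58, 7.23 and 11.8 CPM at 4 h and at 12.1, 14.7 and 15.04 at 24 h. The libraries of both drugs at 4 h, and those of i-BET151 at 24 h, lay below every DMSO library, whereas with i-BET858 at 24 h the range overlapped that of DMSO.

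ZMYND8 was 3-fold lower with i-BET858 than with DMSO at 4 h (log2 fold change -1.59, SE 0.20, 95% interval 2.21 to 4.08-fold lower, adjusted p = 1.47e-04). With i-BET151 it was 3.58-fold lower at 4 h (-1.84, SE 0.20, 2.62 to 4.87-fold lower, adjusted p = 1.67e-04) and 2.56-fold lower at 24 h (-1.36, SE 0.18, 1.93 to 3.38-fold lower, adjusted p = 2.76e-04). With i-BET858 at 24 h it was 1.20 times the DMSO level, which did not pass the test (0.26, SE 0.18, interval 0.915 to 1.58 times, adjusted p = 0.265), and the treated library was the higher in 7 of 9 pairs with DMSO. That interval does not reach the fall seen with i-BET151. In replicates 1 to 3 the ratio of i-BET858 to DMSO at 24 h was 1.33, 1.09 and 1.30, and that of i-BET151 to DMSO was 0.311, 0.371 and 0.557.

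**Figure D2:**
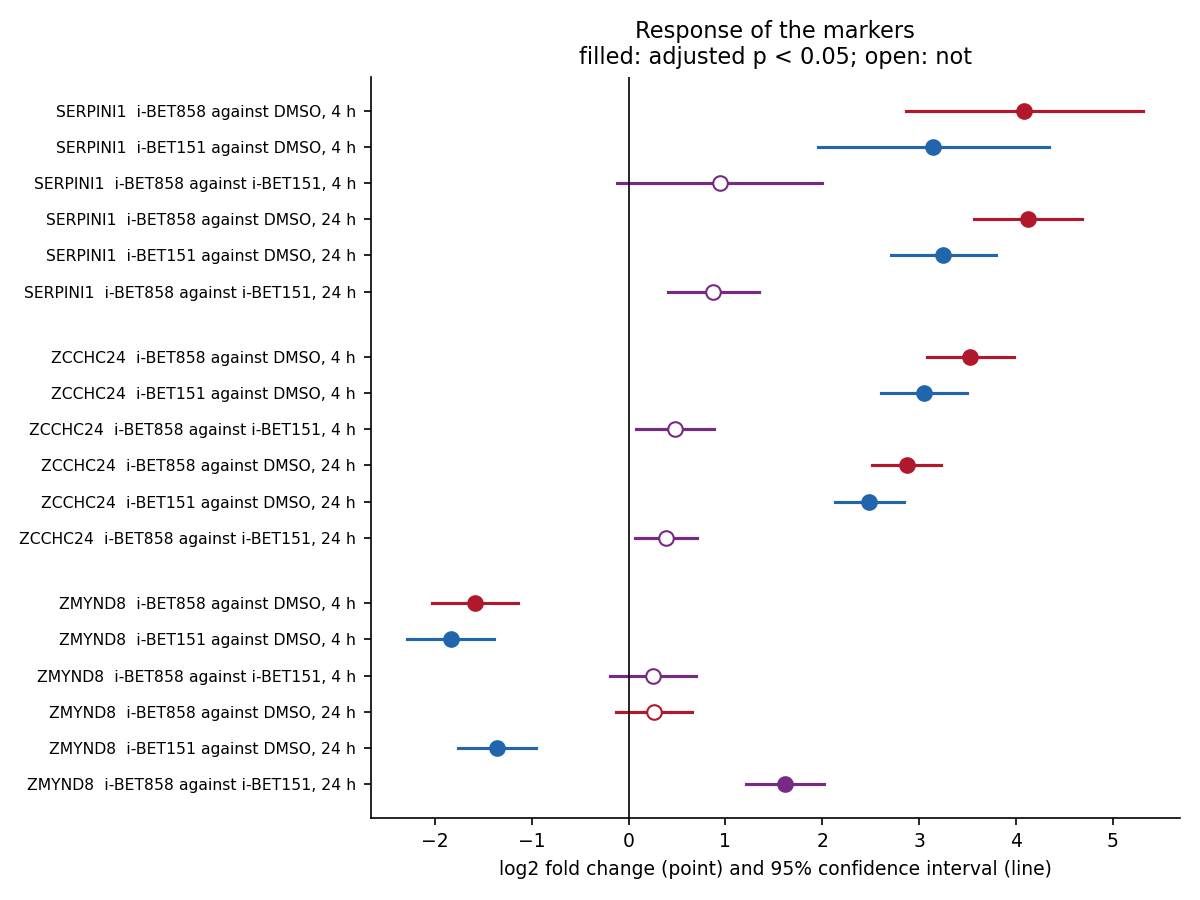
log2 fold change (x axis, points) of each marker in the 6 comparisons within a time point, with 95% intervals as lines; filled points have an adjusted p below 0.05 and open points do not. The 8 intervals of SERPINI1 and ZCCHC24 against DMSO lie above 0, and ZMYND8 with i-BET858 at 24 h is the 1 marker whose interval against DMSO includes 0.

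Calls were common in these comparisons and have to be read against that. With i-BET858 at 4 h, 14.5% of all genes tested were called higher and 16.3% lower, and at 24 h 20.5% and 21.3%. With i-BET151 at 4 h, 7.81% were called higher and 8.43% lower, and at 24 h 17.2% and 16.6%. SERPINI1 and ZCCHC24 were called higher in all 4 comparisons with DMSO, and ZMYND8 was called lower in 3 of them. The comparisons within a time point share their DMSO libraries. Over both drugs together, the exact two-sided permutation test within time points gave a log2 difference from DMSO of 3.53 for SERPINI1 and 3.0 for ZCCHC24, each with p = 1.42e-04, the smallest it can give, and of -1.12 for ZMYND8 with p = 0.00454. Permuted within time and replicate number, the exact p was 0.00137 for SERPINI1 and for ZCCHC24, the smallest it can give, and 0.0192 for ZMYND8.

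The drugs themselves were then compared at 1 µM, in 6 comparisons of a marker at a time point. All 6 fold changes were above 1, beside a median log2 fold change over all genes of 0.022 at 4 h and -0.01 at 24 h. They do not share a meaning. By these estimates SERPINI1 and ZCCHC24 rose further with i-BET858, whereas ZMYND8 fell less at 4 h and was not called lower than DMSO at 24 h. The structures of the drugs are not compared here. At 4 h SERPINI1 was 1.92 times as high with i-BET858 as with i-BET151 (95% interval 0.921 to 3.99, adjusted p = 0.497), ZCCHC24 1.39 times (1.05 to 1.84, adjusted p = 0.301) and ZMYND8 1.19 times (0.878 to 1.62, adjusted p = 0.726). None of these passed the test, in a comparison where 0.971% of all genes were called. The libraries of ZCCHC24 did not overlap, while those of SERPINI1 and ZMYND8 did, with i-BET858 higher in 7 of 9 pairs for each. How many of all genes lack overlap in the same way was not counted, so no difference between the drugs is read from it.

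At 24 h ZMYND8 was 3.07-fold higher with i-BET858 than with i-BET151 (log2 fold change 1.62, SE 0.18, 95% interval 2.32 to 4.07-fold, adjusted p = 0.0219), where 0.21% of all genes, or 36, were called. By p it came at number 2 of 17157 genes. The ratio was 4.28, 2.94 and 2.32 in replicates 1 to 3, and all 9 pairs had the same direction. SERPINI1 was 1.84 times as high (1.33 to 2.54, adjusted p = 0.141) and ZCCHC24 1.31 times (1.04 to 1.64, adjusted p = 0.335), without passing the test. The libraries of both lacked overlap, and here too the share of all genes that do was not counted. The call for ZMYND8 was lost in a fit of only both drugs (adjusted p = 0.0544) and when i-BET858 replicate 1 or 2, i-BET151 replicate 1 or 2, or DMSO replicate 2 was left out (0.0566 to 0.137), with log2 fold changes of 1.47 to 1.66 there. With the replicate number as a block, SERPINI1 was called between the drugs at 4 h (log2 fold change 0.96, adjusted p = 0.0109) and at 24 h (0.88, adjusted p = 0.00425), where 1655 and 749 genes were called. Without replicate 3 it was also called at both times (0.91, adjusted p = 0.0297, and 0.88, adjusted p = 0.00229), and ZMYND8 at 24 h differed by 1.84 (adjusted p = 2.4e-05).

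HEXIM1, an inhibitor of the elongation kinase P-TEFb and another marker of BETi, gives a scale for these responses: it was 3.65-fold and 2.38-fold higher than DMSO at 4 h with i-BET858 and i-BET151, and 3.38-fold and 2.17-fold at 24 h. Between the drugs HEXIM1 was 1.54-fold higher with i-BET858 at 4 h (adjusted p = 0.033) and 1.55-fold at 24 h (adjusted p = 0.0649). The call at 4 h was lost without any 1 of 8 libraries (adjusted p = 0.0512 to 0.159). It was also lost in a fit of only both drugs (0.0855) and with total library size (0.0705). The log2 fold changes there were 0.57 to 0.69, 0.61 and 0.52, beside 0.62 in the main fit. The call was kept with the replicate number as a block (0.61, adjusted p = 3.4e-04) and without replicate 3 (0.65, 0.0149). It was also kept with DESeq2 (0.63, 6.31e-04), no filter on low counts (0.61, 0.00215) and all 18 libraries in 1 fit (0.61, 0.00698). At 24 h HEXIM1 passed the test with the replicate number as a block (log2 fold change 0.64, adjusted p = 8.65e-04), without replicate 3 (0.66, 3.49e-04), without DMSO replicate 3 alone (0.64, 0.0303), with DESeq2 (0.65, 1.02e-04), with no filter on low counts (0.66, 9.2e-05) and with all 18 libraries in 1 fit (0.65, 0.0238).

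The change of each response from 4 to 24 h was tested as a drug-by-time interaction over all 18 libraries. ZMYND8 moved up with i-BET858: its difference from DMSO was 1.89 higher on the log2 scale at 24 h than at 4 h (SE 0.28, 95% interval 1.31 to 2.47, adjusted p = 8.24e-05), in a comparison that called 27.2% of all genes. With i-BET151 the corresponding change was 0.50 (SE 0.28, -0.08 to 1.08, adjusted p = 0.260), where 13.8% were called. The difference between these changes, a comparison added after the data were seen, was 1.39 (SE 0.28, 0.80 to 1.98, adjusted p = 0.0547), where 0.143% of genes were called. It passed the test with the replicate number as a block (1.39, adjusted p = 0.00811, 462 genes called), without replicate 3 (1.5, adjusted p = 0.0209), and without i-BET151 4 h replicate 2 or DMSO 24 h replicate 3 alone (adjusted p = 0.0474 and 0.0412).

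For ZCCHC24 the response was smaller at 24 h by estimates that did not pass the test: the change was -0.62 for i-BET858 (SE 0.25, -1.15 to -0.09, adjusted p = 0.0783) and -0.55 for i-BET151 (SE 0.25, -1.08 to -0.02, adjusted p = 0.166). The block gave -0.62 with an adjusted p of 0.0451 for i-BET858, and without replicate 3 the changes were -1.10 (adjusted p = 0.00162) and -0.85 (adjusted p = 0.0157). Without DMSO 4 h replicate 3 alone, in which ZCCHC24 was highest among the DMSO libraries, they were -0.85 (adjusted p = 0.0139) and -0.78 (adjusted p = 0.0424), and without DMSO 24 h replicate 3 the change with i-BET858 was -0.74 (adjusted p = 0.0461). For SERPINI1 the change was 0.08 under i-BET858 (-1.24 to 1.40, adjusted p = 0.948) and 0.12 under i-BET151 (-1.21 to 1.45, adjusted p = 0.934), intervals that hold a 2-fold move in either direction. Without replicate 3 these changes were -0.11 (SE 0.29) and -0.09 (SE 0.29). In DMSO alone, where 0.0386% of genes were called between 24 h and 4 h, the log2 difference was -0.06 for SERPINI1, -0.48 for ZCCHC24 (adjusted p = 0.404) and 0.09 for ZMYND8, none called.

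**Figure D3:**
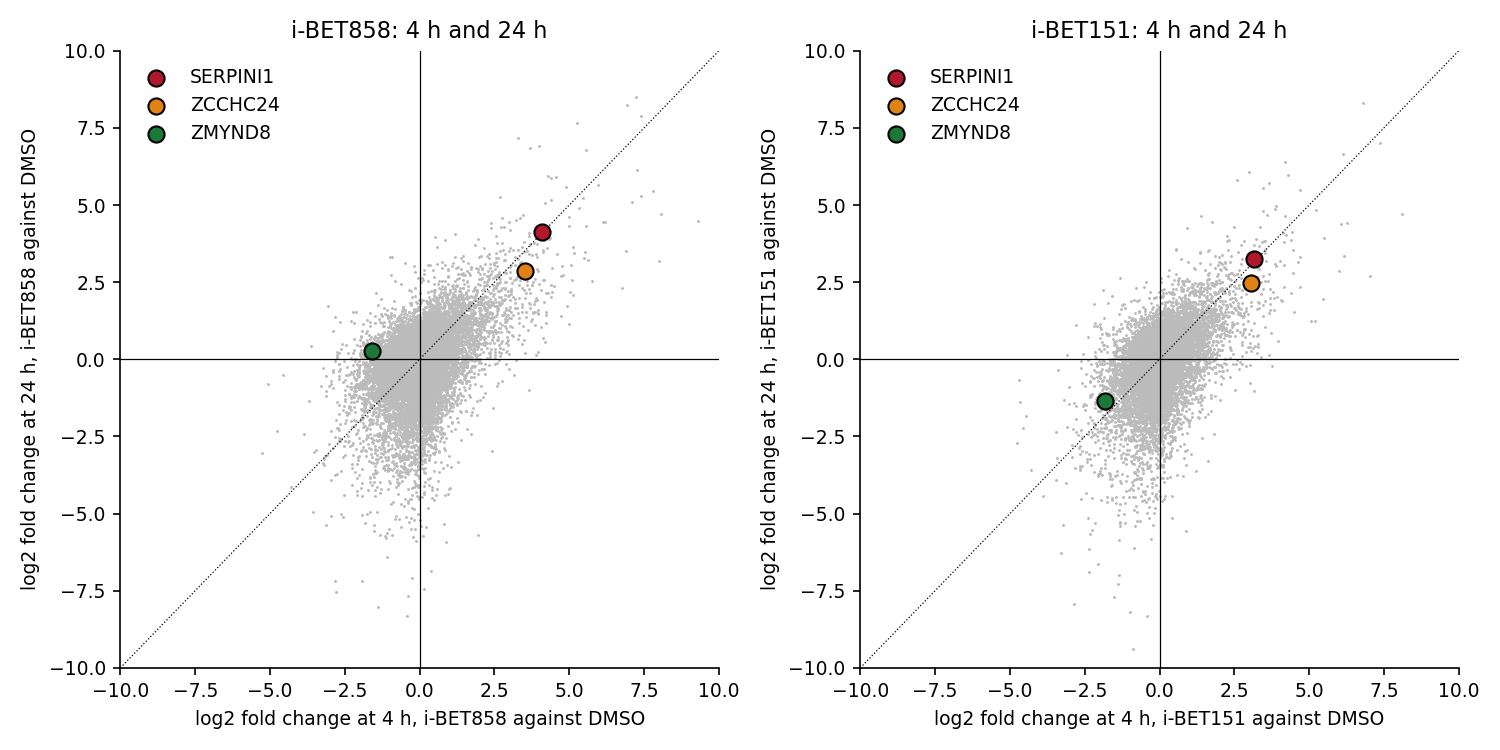
log2 fold change against DMSO at 4 h (x axis) and at 24 h (y axis) for every gene tested at both times (grey points) and the 3 markers (coloured), for i-BET858 (left) and i-BET151 (right); the dotted line marks equal values. SERPINI1 lies near that line with both drugs, ZCCHC24 below it, and ZMYND8 moves from -1.59 to 0.26 with i-BET858 and from -1.84 to -1.36 with i-BET151.

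Per kilobase of exon, the scale on which genes can be compared, the levels of the 3 markers can be set side by side. With DMSO at 4 h ZMYND8 had a level of 4.32 CPM per kilobase, ZCCHC24 0.885 and SERPINI1 0.789. With i-BET858 at 4 h SERPINI1 had 13.5 ± 7.22 (SD, n = 3), ZCCHC24 10.2 ± 1.42 and ZMYND8 1.44 ± 0.242, so that SERPINI1 and ZCCHC24 were within their spread. With i-BET151 at 4 h SERPINI1 had 7.07, ZCCHC24 7.36 and ZMYND8 1.21. At 24 h i-BET858 gave 13.6 for SERPINI1, 4.76 for ZCCHC24 and 5.68 for ZMYND8, and i-BET151 gave 7.33, 3.60 and 1.83 in the same order. Ordered over the groups, the level of SERPINI1 ran from i-BET858 through i-BET151 to DMSO, with overlapping ranges between the 2 times of each treatment, and between i-BET858 at 4 h and i-BET151 at either time. That of ZMYND8 ran from i-BET858 at 24 h through DMSO at 24 h and at 4 h, each overlapping the next, to i-BET151 at 24 h, i-BET858 at 4 h and i-BET151 at 4 h, which also overlapped one with the next.

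Over the 18 libraries, log2 CPM of SERPINI1 and ZCCHC24 had a Pearson r of 0.888, SERPINI1 and ZMYND8 of -0.456, and ZCCHC24 and ZMYND8 of -0.667. These are descriptions, since the libraries share treatments and depth. The genes with the most similar pattern were sought among 11739 genes with a mean log2 CPM of at least 1. For SERPINI1 they included MAP1LC3B (r = 0.986), which encodes an autophagosome protein, LIMA1 (0.983), UBE2A (0.981) and SLC25A4 (0.981). For ZCCHC24 they were PPP1R13B (0.997), IFFO2 (0.990), WDR47 (0.987), FZD9 (0.987) and FAM222A (0.986). Picked by their likeness over the same libraries, these genes had to move with the markers, and their log2 fold changes, 1.04 to 3.29 for i-BET858, are a description.

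ZMYND8 had 1 close companion, GAB2 (r = 0.984), an adaptor protein of receptor signalling. The next were MISP (0.862), CDH6 (0.856), ARID5B (0.841) and TMEM139 (0.837). At 4 h GAB2 had a level of 213 ± 22.1 CPM (SD, n = 3) in DMSO, beside 75.5 ± 13.2 under i-BET858 and 72.4 ± 17.2 under i-BET151. At 24 h the level was 202 ± 40.7 in DMSO, 239 ± 12.3 under i-BET858 and 104 ± 21.4 under i-BET151. Its log2 fold changes against DMSO, for i-BET858 and then i-BET151, were -1.49 and -1.56 at 4 h, and 0.20 and -0.99 at 24 h. Between the drugs at 24 h GAB2 differed by 1.19 on the log2 scale. Since these genes too were picked by likeness, no test of them is given.

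**Figure D4:**
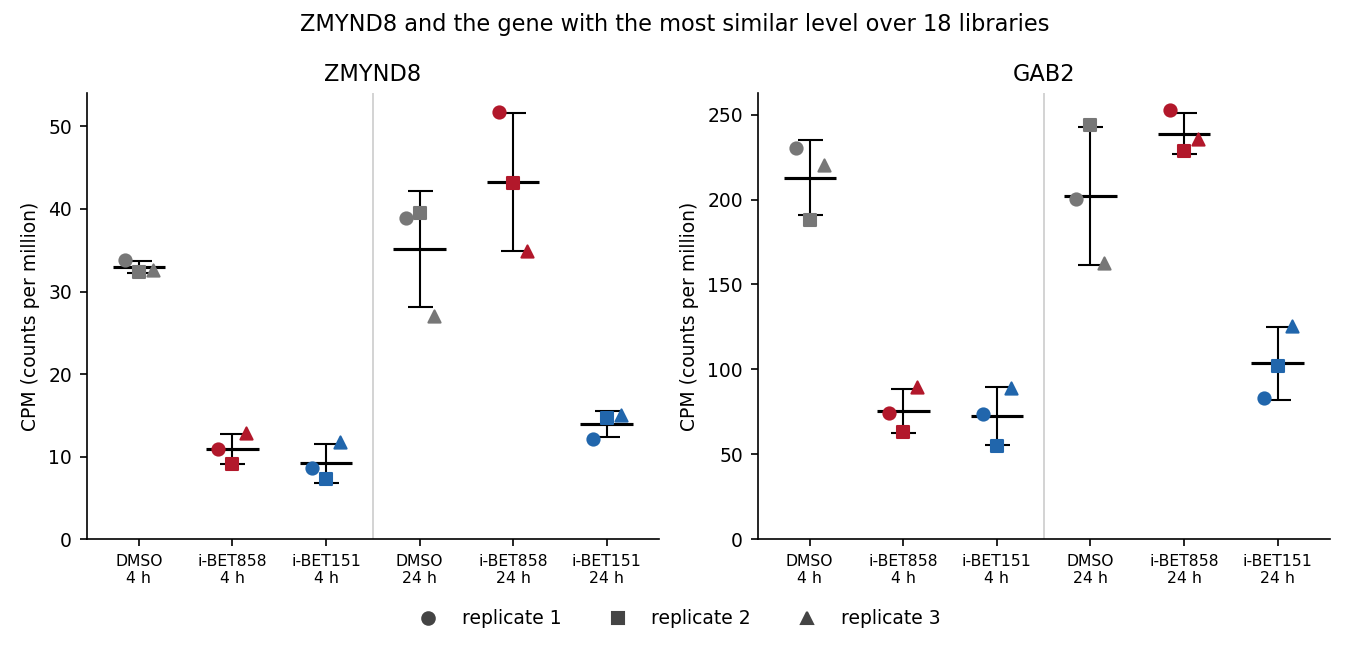
Level (CPM, y axis from 0) of ZMYND8 and of GAB2 in the 18 libraries by group, with mean and SD of 3. Both are low with either drug at 4 h, and at 24 h the i-BET151 libraries lie below all libraries of DMSO and of i-BET858.

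Genes next to the markers on the chromosome were read beside them. PDCD10, which starts 304 bases from the GENCODE start of SERPINI1 on the other strand, stood at 56.1 to 69.3 CPM in the group means, and its log2 fold changes against DMSO were -0.11, 0.03, 0.09 and -0.07 (i-BET858 and i-BET151 at 4 h, then at 24 h; none called). SERPINI1 was thus called higher in 4 comparisons in which no change of this neighbour was called (adjusted p = 0.619 to 0.934). GOLIM4, on its other side, was called higher at 24 h only (0.93 and 0.90 for the drugs in the same order). PPIF, downstream of ZCCHC24, was called higher with i-BET858 at 4 h (0.54) and lower with both drugs at 24 h (-0.70 and -0.79), and EIF5AL1, upstream, was not called. Beside ZMYND8, EYA2 was called lower at 24 h (-1.95 and -1.47) and NCOA3 higher (1.23 and 1.09) with both drugs, while a call of NCOA3 with i-BET858 at 4 h (0.45, adjusted p = 0.0492) was near the threshold.

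The gene lists that follow were read against all genes tested, of which 30.8% were called in either direction with i-BET858 and 16.2% with i-BET151 at 4 h, and 41.7% and 33.8% at 24 h. Relatives of SERPINI1 were read from a list of 34 serpins and plasminogen activation genes, of which 19 had enough counts at 4 h and 17 at 24 h. At 4 h 6 were called higher and 2 lower with i-BET858, and 3 higher and 2 lower with i-BET151, or 42.1% and 26.3% of those tested in either direction. At 24 h 3 were called higher and 9 lower with i-BET858 (median log2 fold change -1.05), and 3 higher and 10 lower with i-BET151 (median -1.24), beside medians of -0.012 and 0.005 over all genes. These were 70.6% and 76.5% of those tested. SERPINE2, an inhibitor of thrombin and of plasminogen activators, rose by 2.08 at 4 h and 2.92 at 24 h with i-BET858, and SERPINB9, the inhibitor of granzyme B, by 2.84 and 2.29. The 6 called higher at 4 h include SERPINC1 and SERPINE3, which had DMSO means below 0.03 CPM, passed the filter on low counts only through the treated groups and so had to differ. SERPINC1 is also among the 3 called higher with i-BET151.

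Both plasminogen activators on this list fell at 24 h. PLAU, urokinase, fell with i-BET858 by 1.05 on the log2 scale at 4 h and by 3.15 at 24 h, from 19.2 ± 2.65 CPM with DMSO at 24 h to 2.22 ± 0.106. PLAT, tissue-type plasminogen activator and the target of neuroserpin, was named after its values were seen: at 24 h it stood at 27.2 ± 0.371 CPM in DMSO, 5.40 ± 1.04 under i-BET858 and 6.09 ± 0.919 under i-BET151, and fell by 2.37 and 2.18 on the log2 scale. At 4 h PLAT was not called (-0.24 and -0.81, adjusted p = 0.535 and 0.0543).

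Among 16 tested genes of a list of 18 with CCHC zinc fingers, 3 were called higher and 6 lower with i-BET858 at 4 h, and 4 and 7 at 24 h. With i-BET151 it was 3 and 3, then 3 and 6. The shares called were 56.2%, 37.5%, 68.8% and 56.2%, with median log2 fold changes of -0.49, -0.16, -0.43 and -0.31, in the order i-BET858 and i-BET151 at 4 h, then at 24 h. ZCCHC12 rose by 2.98 at 4 h and 3.53 at 24 h with i-BET858, and ZCCHC14 by 1.34 and 1.47, as did ZCCHC2 (0.76 and 1.37). LIN28B, which blocks the processing of let-7 microRNAs, fell by 2.67 and 2.08, SREK1IP1 by 1.89 and 1.12, and ZCCHC4 by 1.80 and 0.90.

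Of 25 partners of ZMYND8, all tested, 6 were called with i-BET858 at 4 h and 2 with i-BET151, each of them lower. At 24 h i-BET858 had 8 partners called lower and 5 higher, and i-BET151 had 7 and 4. At 4 h the shares called, 24% and 8%, were below those of all genes, and at 24 h they were 52% and 44%. The median log2 fold change of the partners was -0.16, -0.06, -0.05 and -0.05 in these 4 comparisons, beside 0.02, 0.01, -0.01 and 0.01 over all genes. KAT5, the acetyltransferase TIP60, fell by 1.67 at 4 h with i-BET858 and stood at -0.05 at 24 h (adjusted p = 0.853). ZNF532, of the zinc finger complex that ZMYND8 joins, fell by 0.62 and 1.56, and the NuRD subunit MTA2 by 0.72 and 0.71. MTA3, CHD3 and MTA1, also of NuRD, fell at 24 h by 1.51, 1.45 and 1.15. Other subunits of NuRD at 24 h are given as mean ± SD of 3 libraries, from DMSO to i-BET858. GATAD2B went from 12.8 ± 4.62 to 20.8 ± 8.47 CPM, RBBP4 from 166 ± 6.60 to 168 ± 5.96 and HDAC2 from 258 ± 26.3 to 268 ± 38.5. The ranges overlapped for each of these, so no rise is read from them. HDAC1 went from 166 ± 6.20 to 129 ± 4.08 and MBD2 from 67.9 ± 3.53 to 47.75 ± 1.81. RBBP7 went from 165 ± 26.8 to 129 ± 20.8, with overlapping ranges. Ranges of CHD4, GATAD2A and MBD3 overlapped too. The partners named with a fold change were those of largest change, and none of the 5 called higher at 24 h is among them.

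Of 17 tested genes with a MYND finger, 1 was called higher and 3 lower with i-BET858 at 4 h, and 4 and 3 at 24 h, with 1 and 2, then 4 and 3, for i-BET151. The shares called were 23.5% and 17.6% with i-BET858 and i-BET151 at 4 h and 41.2% with each at 24 h, near the 30.8%, 16.2%, 41.7% and 33.8% of all genes. CBFA2T2 rose by 1.16 and 1.06, ANKMY2 by 0.94, SMYD3 by 0.66 and EGLN1, the oxygen sensor of the HIF pathway, by 0.62 at 24 h with i-BET858. SMYD5 fell by 1.08 and 1.20, and SMYD2 by 0.83 at 24 h.

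Of 11 other genes reported to respond to BETi, 8 could be tested. At 4 h i-BET858 had 4 called, each higher, and i-BET151 had 4 called higher and 1 lower. The lower one was IL7R, with a log2 fold change of -2.84 (edgeR, adjusted p = 0.0223), whose adjusted p passed above 0.05 on leaving out any 1 of the DMSO replicates or i-BET151 replicate 1 or 2. At 24 h i-BET858 had 4 higher and 3 lower, and i-BET151 4 and 2. IL7R is among the lower ones with each drug. At 24 h it passed the filter on low counts only through DMSO (0.363 to 1.11 CPM, against at most 0.111 with i-BET858) and so had to differ. The shares called were 50% and 62.5% at 4 h, and 87.5% and 75% at 24 h, of 8 genes that were listed because they respond to BETi. The shares at 24 h count IL7R, whose call there was set by the filter. SERTAD1 rose by 3.51 and 2.62 on the log2 scale, H2BC21 by 1.35 and 2.21, and H1-2 by 1.10 and 1.92, while BCL2 fell by 3.16 at 24 h. At 24 h IL7R stood at 0.852 ± 0.423 CPM with DMSO and at 0.0588 ± 0.0558 with i-BET858, and had no count with i-BET151. Of the BET genes, BRD2 rose by 1.33 at 4 h and 1.00 at 24 h with i-BET858, and BRD3 by 0.51 at 24 h.

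**Figure D5:**
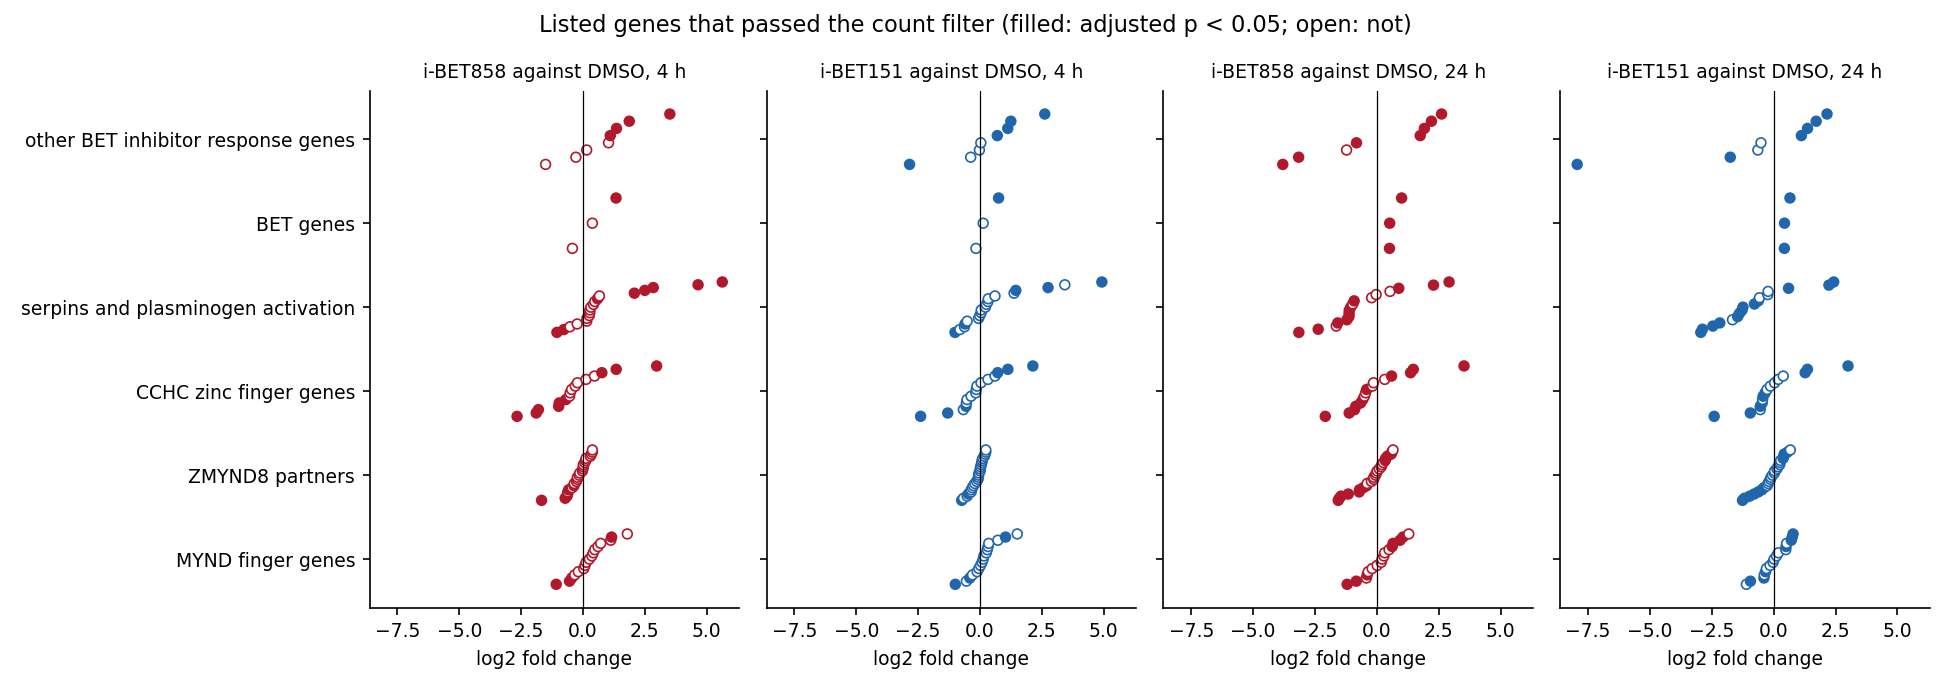
log2 fold change against DMSO (x axis) of every listed gene that had enough counts, by list (rows) and comparison (panels); filled points have an adjusted p below 0.05 and open points do not. The serpin list spreads to both sides at 24 h, and the point near -8 with i-BET151 at 24 h is IL7R, a fitted value for a gene without counts in that group.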

How the data were processed

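Poly-A RNA of 18 OVCAR-3 libraries was sequenced in paired ends; per the study's methods, the authors deposited raw read counts per gene, as made by STAR on GRCh38 after a FastQC check, in 1 table per time point. The annotation, the strand column and the tool versions are not given in the sources used here. Symbols came from GENCODE 44 (58472 of 58825 identifiers, 99.4%).

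The counts were tested in edgeR 4.0.16 (R 4.3.3; quasi-likelihood, TMM scaling, filterByExpr) in 1 fit per time point (9 libraries), and changes over time in 1 fit of all 18 libraries. Adjusted p-values are Benjamini-Hochberg over all genes. CPM used TMM factors over the 18 libraries (0.893 to 1.087), and log2 CPM a prior count of 2. The test was tried on simulated data. The study itself used DESeq2, run here in version 1.42.0 as an alternative.

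Libraries with the same replicate number deviated together from their group means (r of 0.300 to 0.623, median 0.554, at 4 h and 0.229 to 0.578, median 0.445, at 24 h). Between libraries with different numbers r was -0.551 to 0.338 (median -0.335) at 4 h and -0.571 to 0.593 (median -0.43) at 24 h. The ranges overlapped at both times. The numbers were taken as pairing, and blocked values stand beside results they change. Replicate 3 stood apart in genes with a count, and the block cannot tell pairing from that difference. Replicates of a group differed by more than counting noise (chi-square per degree of freedom 4.19 to 66.1).

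The members and lists were chosen with earlier results of these data known. List genes were named by size of change with i-BET858, up to 6 per list, and similar genes by Pearson r, 5 per member; a few of these genes are not reported here. The time point of each column came from the name of its table. PLAT and the motif CAGCTG were picked after their values or sequence had been seen.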

Additional observations from a re-analysis of the deposited data

Results flagged for a closer look

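The response of ZMYND8 to i-BET858 differed between the time points by the interaction test: the log2 difference from DMSO was 1.89 higher at 24 h than at 4 h (edgeR, adjusted p = 8.24e-05). It was -1.59 at 4 h, with all 9 pairs of libraries lower, and 0.26 at 24 h, with 7 of 9 pairs higher. The direction was the same in every alternative run. No outlier test was applied to groups of 3.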

How the results depend on the processing

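Of 666 alternatives over 30 comparisons of the markers, 618 kept direction and side of the threshold, among them every comparison of SERPINI1 and ZCCHC24 with DMSO and the 3 falls of ZMYND8. Between the drugs, SERPINI1 passed the test at 4 h with no filter on low counts (0.93) and with the replicate block (0.96), and at 24 h with no filter (0.90), the block (0.88) and DESeq2 (0.89); leaving out single replicates gave 0.54 to 1.31 and 0.72 to 1.07. ZMYND8 between the drugs at 24 h lost its call in a fit of only the groups compared (1.62), with 1.47 to 1.84 on leaving out replicates. The change of the drug difference of ZMYND8 passed with no filter (1.41), at least 10 counts in every library (1.37), the block (1.39) and DESeq2 (1.37), with 1.18 to 1.54 on leaving out replicates. The change of the i-BET858 effect on ZCCHC24 passed with at least 10 counts (-0.70), the block (-0.62) and DESeq2 (-0.67), with -1.10 to -0.45 on leaving out replicates, and that of i-BET151 ranged from -0.85 to -0.39. Values near 0 changed sign. The change of the i-BET858 effect on SERPINI1 was -0.0077 with at least 10 counts and -0.32 to 0.47 on leaving out replicates. In the same way its change for i-BET151 was -0.31 to 0.44 and for DMSO over time -0.19 to 0.12. The change of the drug difference over time was -0.42 to 0.37 for SERPINI1 and -0.26 to 0.065 for ZCCHC24, and ZMYND8 in DMSO over time was -7e-04 to 0.25. PDCD10 was -0.0202 (i-BET151 at 4 h) and -0.0029 (i-BET858 at 24 h) with total library size, and on leaving out replicates -0.25 to 0.021 and -0.10 to 0.19 at 4 h (i-BET858, i-BET151), and 0.04 to 0.15 and -0.14 to 0.052 at 24 h. The causes were not tested.

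Counts of genes called moved more. The replicate block called 5616 for i-BET151 against DMSO at 4 h (2791 without it) and 1655 and 749 between the drugs (167 and 36). It called 4580 for the change of the i-BET151 effect (2508), 375 for DMSO over time (7) and 462 for the change of the drug difference (26). Beyond the values above the block changed no call of the markers. DESeq2 called 667 and 424 between the drugs, 177 and 235 for the last 2 comparisons, and no filter on low counts 513, 343, 161 and 74. Only the groups compared gave 0, 1, 0 and 1. All 18 libraries in 1 fit called 549 between the drugs at 4 h, and total library size 332 and 56 between the drugs. DESeq2 size factors called 13 between the drugs at 24 h and 4 in DMSO over time. At least 10 counts gave 40 for the change of the drug difference. Requiring a 2-fold change as well left 2421 and 1220 genes at 4 h and 3234 and 2347 at 24 h against DMSO, 36 and 11 between the drugs, 2738 and 1217 for the changes, and 1 and 10. Leaving out replicates gave 1685 to 4433 genes for i-BET151 against DMSO at 4 h and 4272 to 9367 at 24 h (5797 with all libraries). It gave 1595 to 4735 for the change of the i-BET151 effect and 0 to 392 and 1 to 1261 between the drugs. For DMSO over time it gave 0 to 58, and for the change of the drug difference 1 to 146. Total library size moved the median of all genes with i-BET858 at 4 h from 0.023 to -0.136 and the share of calls that were higher from 47.1% to 31.9%; between the drugs the share went from 42.5% to 16.6% at 4 h, and at 24 h from 44.4% to 26.8%, or 76.9% with DESeq2 size factors. Of the 5 genes most like each marker, 0, 2 and 3 stayed in the first 5 by Spearman's rho for SERPINI1, ZCCHC24 and ZMYND8, and 1, 3 and 1 over the 6 group means. Among the other named genes 3119 of 3317 alternatives kept the call and direction. A level near 0.110 CPM or below, as in IL7R and SERPINE3, is limited by depth.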
